A study of Mus musculus with 24 samples.

Results

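Messenger RNAs of red blood cells were followed through the hippocampus of mice that had gone through social defeat. The set held 6 genes, picked by symbol: Alas2 for heme synthesis, the alpha globins Hba-a1 and Hba-a2, the beta globin Hbb-b1, Slc4a1 for the red cell membrane and Bpgm for oxygen release. All 6 stood in the count table of 24062 genes, and 5 of them were among the 16313 genes with enough reads to be tested. Hbb-b1 was the member left out by the filter for low counts.

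The 24 libraries were made from hippocampus micro-dissected from C57BL/6 mice, and they formed 4 groups. The WT stress group (6 libraries) held wild type mice that went through social defeat by paired fighting, and the WT control group (7 libraries) held unstressed wild type mice. The KO stress group (5 libraries) and the KO control group (6 libraries) held mice labelled IL-1R1 knockout, which the series describes as a knockout of the interleukin-1 receptor in neurons. The Cre driver, the age and sex of the mice, whether they were perfused, and whether each library came from a separate mouse are not stated in the labels or series text. The p-values therefore measure the spread between these libraries, which may in part be technical.

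Red blood cells carry oxygen on hemoglobin, a protein of alpha and beta globin chains that each hold a heme. The erythroid enzyme ALAS2 makes the first committed step of heme synthesis in maturing red cells, while other tissues, the brain among them, use its relative ALAS1. Mature mammalian red cells have no nucleus, and the youngest of them in blood, the reticulocytes, still carry messenger RNA for globins, ALAS2 and membrane proteins such as the anion exchanger band 3, the product of Slc4a1. Bpgm encodes bisphosphoglycerate mutase, whose product lowers the oxygen affinity of hemoglobin.

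Total counts ran from 25711872 to 35148198 per library, and 3 counts corresponded to 0.0853 to 0.117 CPM (counts scaled to library size, with TMM factors). Such floors cover counting error only. By their level of Rn45s, the 45S precursor of ribosomal RNA, 11 libraries stood at 24240 to 50450 CPM (set 1) and 13 at 4107 to 8786 CPM (set 2), and both sets held all 4 groups. WT stress replicate 5, KO stress replicate 3 and KO stress replicate 5 carried the most RNA of the thalamus, with a summed 1243, 1312 and 1099 CPM over 12 thalamic and habenular markers, against 254 to 966 CPM in the other libraries. Il1r1, the targeted gene, averaged 5.54 CPM in KO stress and 5.56 CPM in WT stress, and 3.44 CPM in KO controls and 3.35 CPM in WT controls. The labels do not say which exons the deletion removes or in which cells, so these levels check the genotype labels neither way.

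In the mm10 build, the GENCODE annotation used here lists 5 of the 6 members by symbol. Alas2 (ENSMUSG00000025270.13) lies on the plus strand of chromosome X, bases 150547375 to 150570638. Hba-a1 (ENSMUSG00000069919.7) and Hba-a2 (ENSMUSG00000069917.7) follow each other on chromosome 11, from 32283511 to 32284465 and from 32296489 to 32297298, both on the plus strand. Slc4a1 (ENSMUSG00000006574.15) lies on the minus strand of the same chromosome, from 102348824 to 102366203. Bpgm (ENSMUSG00000038871.5) occupies bases 34476207 to 34505613 of chromosome 6, plus strand. Hbb-b1 has no entry under that symbol in this annotation.

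The promoters of Alas2, Hba-a2 and Bpgm are printed because Alas2 and Hba-a2 moved together across libraries and Bpgm moved far less. Each line gives the RefSeq sequence of the GRCm38.p6 build from 250 bases before to 50 bases after the gene's start, 5′ to 3′ on the gene's own strand. The windows are chrX:150547167-150547466 (plus strand) for Alas2, chr11:32296242-32296541 (plus strand) for Hba-a2 and chr6:34476106-34476405 (plus strand) for Bpgm. Capitals mark matches, on either strand, to the GATA letters, which were searched with the spelling AGATAA, the spelling AGATAG, the spelling TGATAA and the spelling TGATAG, and to the letters CCACCC of the CACC box. The erythroid factors GATA1 and KLF1 are known to bind such letters.
Alas2: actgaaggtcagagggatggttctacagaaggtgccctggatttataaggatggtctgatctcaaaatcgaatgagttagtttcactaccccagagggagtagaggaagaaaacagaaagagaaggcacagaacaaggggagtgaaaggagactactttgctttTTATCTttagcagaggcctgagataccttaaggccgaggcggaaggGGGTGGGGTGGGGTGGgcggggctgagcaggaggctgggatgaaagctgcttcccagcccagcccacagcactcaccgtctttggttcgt
Hba-a2: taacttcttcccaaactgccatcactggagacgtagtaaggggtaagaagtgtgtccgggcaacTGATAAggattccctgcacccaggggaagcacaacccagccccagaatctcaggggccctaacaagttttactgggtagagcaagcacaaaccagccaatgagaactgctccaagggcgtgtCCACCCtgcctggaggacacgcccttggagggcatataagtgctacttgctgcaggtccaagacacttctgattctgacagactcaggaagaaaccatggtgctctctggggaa
Bpgm: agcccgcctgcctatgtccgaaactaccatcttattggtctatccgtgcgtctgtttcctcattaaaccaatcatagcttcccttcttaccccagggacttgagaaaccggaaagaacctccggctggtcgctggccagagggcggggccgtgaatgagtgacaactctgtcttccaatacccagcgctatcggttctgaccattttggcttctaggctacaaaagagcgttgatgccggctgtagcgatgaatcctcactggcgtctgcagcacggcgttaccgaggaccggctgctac

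The Alas2 window held 1 GATA match, on the minus strand at bases −86 to −81 from the start, and 3 CCACCC matches on the minus strand that overlap by 1 base each, between −40 and −25. The Hba-a2 window held 1 GATA match at −186 to −181 and 1 CCACCC match at −64 to −59, both on the plus strand. Over all 297 bases that could be aligned, the promoter of Hba-a1 was identical to that of Hba-a2. The Bpgm window held neither motif and 3 matches to CCAAT. The Hba-a2 window also held 1 CCAAT match, at −91 to −87 on the plus strand, and the Alas2 window held 0. Among 32851 mouse promoters of the same length, 29.8% held a GATA match, 31.5% a CCACCC match, 7.42% held both and 37.4% a CCAAT match. These matches describe the letters of the windows and say nothing of binding. The promoters of Slc4a1 and Hbb-b1 are not shown here.

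Alas2 was the member with the clearest response to social defeat in both genotypes. It had 23.5, 22.6, 25.2, 24.1, 42.7 and 26.5 CPM in WT stress, with a lowest, median and highest of 22.6, 24.6 and 42.7 CPM. In WT controls it had 4.05, 4.13, 7.62, 3.95, 4.64, 4.04 and 5.44 CPM, with 3.95, 4.13 and 7.62 CPM as the lowest, median and highest. The lowest WT stress library thus stood well above the highest WT control library, and 1 stress library, replicate 5, stood apart at the top. In KO stress Alas2 had 17.8, 11.2, 15.3, 29.0 and 36.2 CPM. In KO controls it had 6.98, 2.78, 3.05, 8.40, 7.70 and 6.39 CPM. The KO groups did not overlap either, but the gap was narrow, with the lowest KO stress library at 11.2 CPM and the highest KO control library at 8.40 CPM.

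On average Alas2 stood at 27.4 ± 7.60 CPM in WT stress (SD, n = 6) and 4.84 ± 1.33 CPM in WT controls (n = 7), and it rose 5.67-fold (log2 fold change 2.50 ± 0.28 SE, adjusted p = 9.62e-05 by edgeR). It had the smallest p of all 16313 genes in this comparison. In bulk tissue, more cells of a type and more RNA per cell cannot be told apart. In KO mice the means were 21.9 ± 10.4 CPM in stress (n = 5) and 5.88 ± 2.40 CPM in controls (n = 6), a log2 fold change of 1.90 ± 0.30 (adjusted p = 0.0293), again with the smallest p of all genes. Averaged over both genotypes, stress raised Alas2 by a log2 fold change of 2.20 ± 0.21 (adjusted p = 3.1e-06). The call in WT mice and in the average held whichever of the 24 libraries was left out. The call in KO mice ended in 8 of 24 such fits, with adjusted p-values up to 0.18 (without KO stress replicate 5), while the log2 fold change stayed between 1.64 and 2.05 over the 24 fits. The libraries whose removal ended it were KO control replicates 1, 2, 3 and 6, KO stress replicates 4 and 5, and WT control replicates 1 and 5.

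Against all genes, the calls were rare. In WT mice 22 of 16313 genes passed at an adjusted p under 0.05, or 0.135%, all of them higher in stress, and 2 of the 5 tested members, Alas2 and Hba-a2, were among them. In KO mice 1 gene of 16313 passed (0.00613%), and that gene was Alas2. In the average over genotypes 35 genes passed (0.215%), 34 of them higher (0.208%), and 3 members were among them, Alas2, Hba-a2 and Slc4a1. The 5 tested members differed widely, from a log2 fold change of 0.18 (Bpgm) to 3.23 (Slc4a1) in WT mice. Every stress library above every control library was seen for 36 genes in WT mice (0.221%), 38 genes in KO mice (0.233%) and 3 genes in both (0.0184%): Alas2, the gene of the siderophore-binding protein lipocalin, Lcn2, and the ubiquitin-conjugating enzyme gene Ube2l6.

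**Figure D1:**
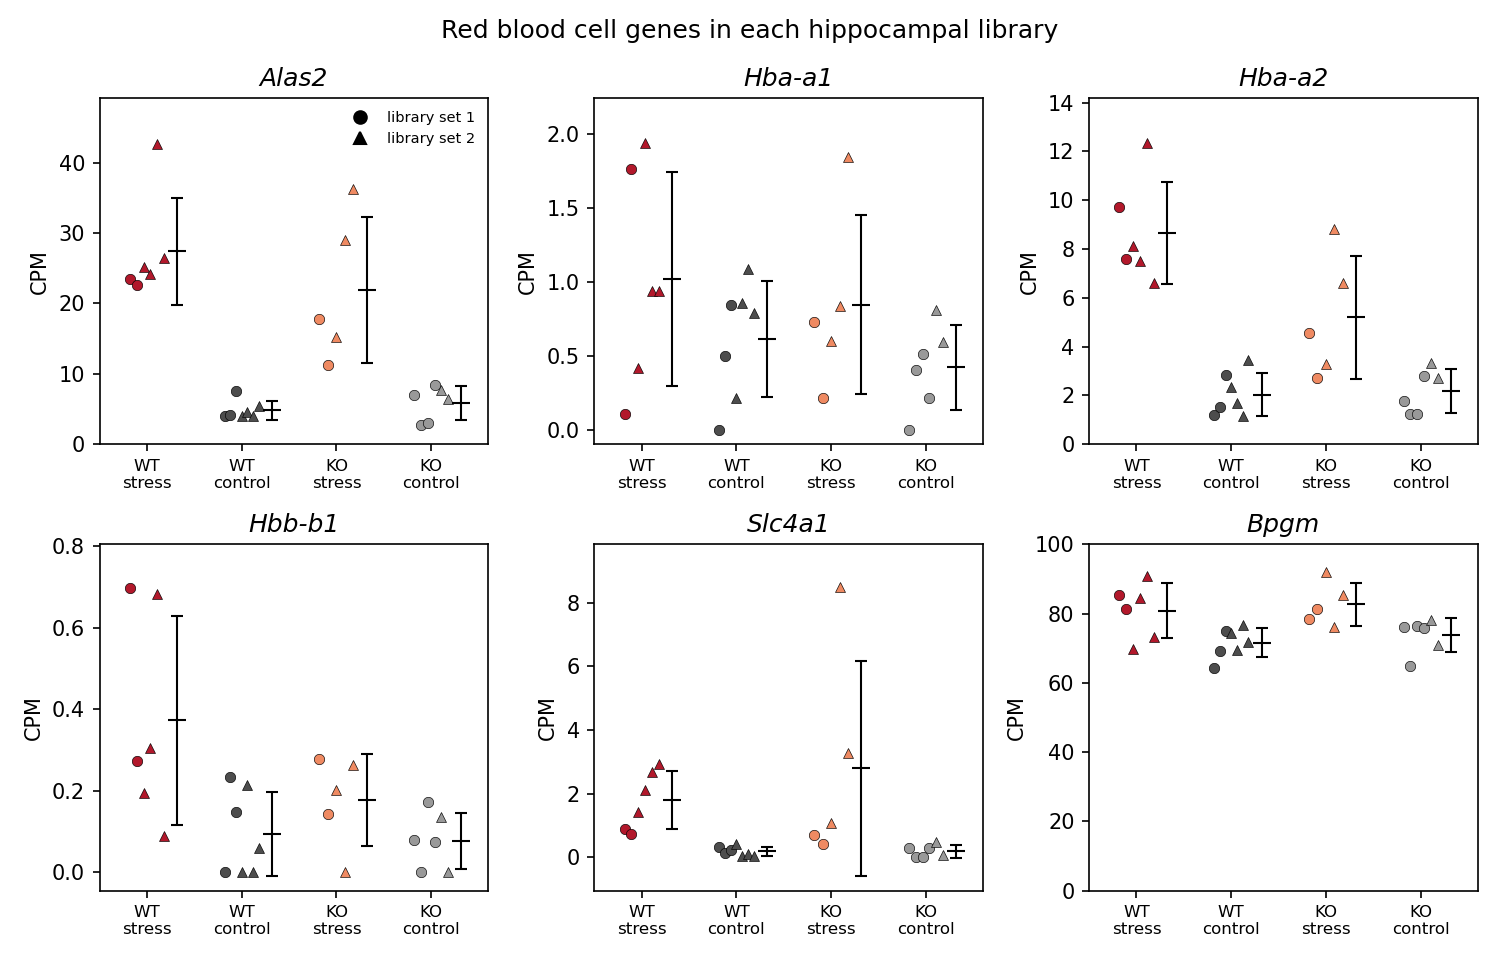
Level of each member (CPM, vertical axis) in each of the 24 libraries, by group. Points are libraries, circles for set 1 and triangles for set 2 by their level of Rn45s, and the bar beside each group is the mean ± SD. Alas2 stress and control libraries were apart in both genotypes, Hba-a2 and Slc4a1 in WT mice, while the Bpgm groups overlapped, with every library between 64.3 and 91.9 CPM.

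Hba-a2, one of the paired genes for the alpha chain of adult hemoglobin, followed Alas2 in WT mice. It had 9.72, 7.58, 8.14, 7.50, 12.3 and 6.61 CPM in WT stress, and 1.19, 1.53, 2.83, 2.34, 1.68, 1.18 and 3.45 CPM in WT controls. The lowest stress library, at 6.61 CPM, lay above the highest control library, at 3.45 CPM. Hba-a2 averaged 8.65 ± 2.08 CPM in WT stress and 2.03 ± 0.872 CPM in WT controls, and rose by a log2 fold change of 2.09 ± 0.30 (adjusted p = 0.00135), with rank 4 of all genes by p. In KO stress it had 4.57, 2.71, 3.29, 8.81 and 6.61 CPM, and in KO controls 1.75, 1.22, 1.23, 2.80, 3.32 and 2.73 CPM. Here 3 of 5 stress libraries lay above all controls and replicates 2 and 3 lay among them. The KO means were 5.20 ± 2.52 CPM in stress and 2.18 ± 0.892 CPM in controls, with a log2 fold change of 1.25 ± 0.33 that did not pass (adjusted p = 0.931). The average over genotypes passed at 1.67 ± 0.22 (adjusted p = 0.000325).

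Hba-a1, the partner of Hba-a2, was counted at far lower levels and gave no call. It ran from 0.104 to 1.94 CPM in WT stress and from 0 to 1.09 CPM in WT controls, and from 0.214 to 1.84 CPM in KO stress and 0 to 0.814 CPM in KO controls. The groups overlapped in both genotypes, and 2 of 6 WT and 2 of 5 KO stress libraries lay above all their controls. The WT stress effect was 0.72 ± 0.65 as log2 fold change (adjusted p = 1), and the KO effect was 0.98 ± 0.73 (adjusted p = 0.988). The reference transcripts of the pair are identical at 537 of 538 aligned bases, and 74.5% of the 100-base windows of Hba-a2 also occur in Hba-a1. No source used here says how reads shared between copies were counted, so the split of reads between Hba-a1 and Hba-a2 is uncertain and the level of each gene alone is too.

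Hbb-b1, a gene for the adult beta chain, had few counts in all groups. Its counts were 20, 8, 6, 8, 24 and 3 in WT stress, and 0, 7, 4, 0, 6, 0 and 2 in WT controls. In KO stress they were 8, 4, 6, 0 and 8, and in KO controls 2, 0, 5, 2, 4 and 0. In each genotype the stress counts reached higher and the groups overlapped. When all genes with a count were tested without the filter, the log2 fold change of Hbb-b1 was 1.96 ± 0.81 for WT (adjusted p = 0.945) and 1.17 ± 0.92 for KO (adjusted p = 0.935), neither of them past the threshold. The other adult beta globin symbols were rarer still: Hbb-bs had 31 counts over the 24 libraries, and Hbb-b2 and Hbb-bt had none. Hbb-bs and Hbb-bt share 92.7% of their aligned transcript bases, so beta globin reads could also be divided between copies.

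Per kilobase of exon sequence, the counted reads of Hba-a2 and Alas2 were of the same order in stressed WT hippocampus. If reads shared with Hba-a1 were left uncounted, the Hba-a2 value is too low, so these values do not rank Hba-a2 against the other members. Hba-a2 stood at 13.0 ± 3.12 CPM per kilobase in WT stress and 3.04 ± 1.31 in WT controls, and Alas2 at 11.4 ± 3.16 and 2.01 ± 0.555 in those groups. In KO mice, Hba-a2 stood at 7.79 ± 3.77 CPM per kilobase in stress and 3.26 ± 1.34 in controls, and Alas2 at 9.11 ± 4.31 and 2.45 ± 0.997. Slc4a1 was far lower, at 0.368 ± 0.188 CPM per kilobase in WT stress and 0.0391 ± 0.0302 in WT controls. Bpgm, at 22.5 ± 2.22 and 19.9 ± 1.18 CPM per kilobase in the same groups, was the highest member in every group mean of the reads as counted. Alas1, the form of the enzyme used outside red cells, stood at 10.01 ± 0.952 CPM per kilobase in WT stress and 10.6 ± 0.9995 in WT controls. The lengths join all annotated exons of a gene, 6174 bases for Alas1 and 2403 for Alas2, and can exceed the transcript present. Values per kilobase therefore do not rank these 2 genes. Without division by length, Alas1 averaged 61.8 CPM and Alas2 27.4 CPM in WT stress.

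Slc4a1, the gene for band 3, the chloride and bicarbonate exchanger of the red cell membrane, had the largest fold change of the tested members in both genotypes and, in KO stress, the widest spread. It had 0.906, 0.748, 1.42, 2.13, 2.67 and 2.94 CPM in WT stress, and 0.340, 0.133, 0.221, 0.431, 0.0357, 0.121 and 0.0585 CPM in WT controls. No WT stress library was as low as a WT control library. In KO stress it had 0.693, 0.427, 1.07, 8.48 and 3.29 CPM, and in KO controls 0.312, 0, 0, 0.291, 0.475 and 0.0699 CPM. KO stress replicate 4 stood far above the rest, and KO stress replicate 2 lay below the highest KO control. The mean was 1.80 ± 0.919 CPM in WT stress and 0.191 ± 0.148 CPM in WT controls, and 2.79 ± 3.38 CPM in KO stress and 0.191 ± 0.196 CPM in KO controls.

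Neither genotype alone passed for Slc4a1 in the edgeR fit of all 4 groups: the log2 fold change was 3.23 ± 0.73 for WT (adjusted p = 0.0923) and 3.85 ± 0.80 for KO (adjusted p = 0.268). In an edgeR fit of the 2 WT groups alone the WT difference passed (adjusted p = 0.0131). By DESeq2 both passed, with adjusted p-values of 0.00198 and 0.00226. In the average over genotypes Slc4a1 rose by 3.54 ± 0.54 (adjusted p = 0.00138), and it did so in each of the 24 fits that left out 1 library. Without KO stress replicate 4 the KO log2 fold change was 2.82, and the WT difference passed at an adjusted p of 0.0353. Control counts of this gene were few, with 39 counts over 7 WT control libraries and 32 over 6 KO control libraries, so its folds are imprecise.

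Bpgm was abundant and nearly level. It had 85.2, 81.3, 69.7, 84.5, 90.9 and 73.2 CPM in WT stress, and 64.3, 69.2, 74.9, 74.4, 69.5, 76.6 and 71.7 CPM in WT controls. In KO stress it had 78.3, 81.4, 91.9, 76.1 and 85.5 CPM, and in KO controls 76.1, 65.0, 76.5, 75.8, 78.2 and 70.8 CPM. In both genotypes 4 stress libraries lay above all controls and the rest lay among them. The means were 80.8 ± 7.95 CPM in WT stress and 71.5 ± 4.22 CPM in WT controls, and 82.6 ± 6.28 CPM in KO stress and 73.7 ± 4.96 CPM in KO controls. The log2 fold change was 0.18 ± 0.065 in WT mice (adjusted p = 0.819), 0.16 ± 0.070 in KO mice (adjusted p = 0.988) and 0.17 ± 0.048 in the average (adjusted p = 0.262), none of them past the threshold.

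**Figure D2:**
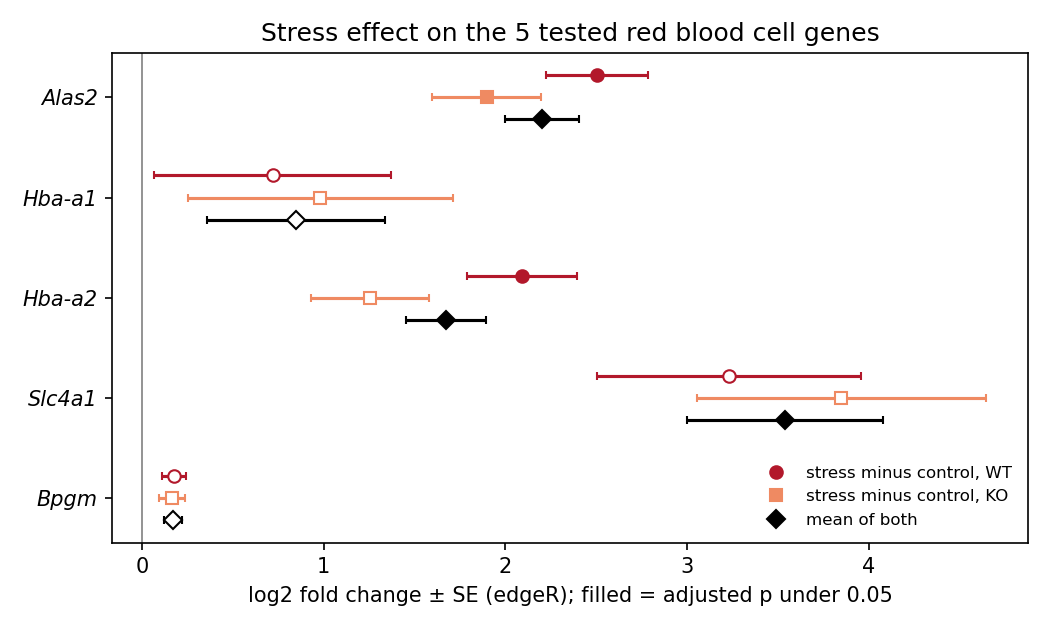
Stress effect on the 5 tested members, as log2 fold change of stress over control (horizontal axis), in WT mice, in KO mice and averaged over both. Bars are ± SE from edgeR, and filled symbols have an adjusted p under 0.05. Alas2 was past the threshold in all 3 comparisons, Hba-a2 in WT mice and the average, Slc4a1 in the average at 3.54, and Bpgm and Hba-a1 in none.

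The neuronal receptor knockout gave no call on any member. For the stress effect in KO mice minus that in WT mice, 0 of 16313 genes passed (0%; 384 at an unadjusted p under 0.05, and 0 by DESeq2). The difference of log2 fold changes was −0.61 ± 0.40 for Alas2, −0.84 ± 0.44 for Hba-a2, 0.62 ± 1.08 for Slc4a1, 0.26 ± 0.98 for Hba-a1 and −0.012 ± 0.096 for Bpgm (adjusted p = 1 for each). For Slc4a1 it was −0.41 without KO stress replicate 4. The standard errors leave room for a difference of either direction in each of these genes. The smallest unadjusted p-values were 0.07 for Hba-a2 and 0.146 for Alas2 (edgeR). No test here shows that the genotypes respond alike.

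Between stressed groups, the KO minus WT log2 fold change was −0.33 ± 0.29 for Alas2 (adjusted p = 0.805), −0.73 ± 0.32 for Hba-a2 (adjusted p = 0.798), 0.63 ± 0.68 for Slc4a1 (adjusted p = 0.822), −0.26 ± 0.71 for Hba-a1 (adjusted p = 0.937) and 0.032 ± 0.070 for Bpgm (adjusted p = 0.916). Between control groups it was 0.28 ± 0.28 for Alas2, 0.10 ± 0.31 for Hba-a2, 0.0067 ± 0.81 for Slc4a1, −0.52 ± 0.68 for Hba-a1 and 0.044 ± 0.065 for Bpgm (adjusted p = 1 for each). Across all genes 0 passed between stressed groups (0%; 768 at an unadjusted p under 0.05, and 0 by DESeq2) and 0 between control groups (0%; 493 at an unadjusted p under 0.05, and 3 by DESeq2). By mean level the order was WT stress, KO stress, KO control, WT control for Alas2 and Hba-a2. For both genes the stressed neighbours did not differ past the threshold, and the control neighbours did not either. For Slc4a1 the order was KO stress, WT stress and then both control groups at 0.191 CPM.

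The members did not move by a common factor. Alas2 rose more than the globins, as measured by the log2 ratio of Alas2 CPM to the summed CPM of Hba-a1, Hba-a2 and Hbb-b1, with 0.5 CPM added to each. Summing the 3 globins avoids the split of counted reads between the alpha globin copies. It does not restore shared reads if these were left uncounted. The ratio was 1.39 ± 0.238 in WT stress and 0.759 ± 0.349 in WT controls, a difference of 0.63 (exact two-sided permutation test, p = 0.00583, adjusted p = 0.0117 over the 2 genotypes). In KO mice it was 1.72 ± 0.180 in stress and 0.967 ± 0.439 in controls, a difference of 0.76 (exact two-sided permutation test, p = 0.0130, adjusted p = 0.0130). The ranges met in both genotypes, with 1.12 to 1.73 in WT stress and 0.308 to 1.43 in WT controls, and 1.54 to 1.99 in KO stress and 0.553 to 1.68 in KO controls.

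Within groups, libraries rich in Alas2 were also rich in Hba-a2. With the 4 group means removed from log2(CPM + 0.5), Alas2 and Hba-a2 had Pearson r = 0.819 over 24 libraries (adjusted p = 5.0e-04, permutation within groups, 10 pairs of members tested) and Spearman rho = 0.794 (adjusted p = 0.0011, permutation). Without the 2 libraries farthest from the median, r was 0.806. It was 0.876 in the stress libraries and 0.772 in the control libraries, and 0.897 in set 1 and 0.776 in set 2. Alas2 and Slc4a1 had r = 0.648 (permutation, adjusted p = 0.0185), rho = 0.654 (permutation, adjusted p = 0.0158) and r = 0.602 without the 2 farthest libraries. Hba-a2 and Slc4a1 did not pass, at r = 0.551 (permutation, adjusted p = 0.0621) and rho = 0.450 (permutation, adjusted p = 0.162). The pairs with Bpgm lay between r = −0.035 and 0.264, and none passed. In set 1 Bpgm had r = 0.575 with Alas2 and 0.566 with Hba-a2, and in set 2 it had 0.052 and −0.099.

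**Figure D3:**
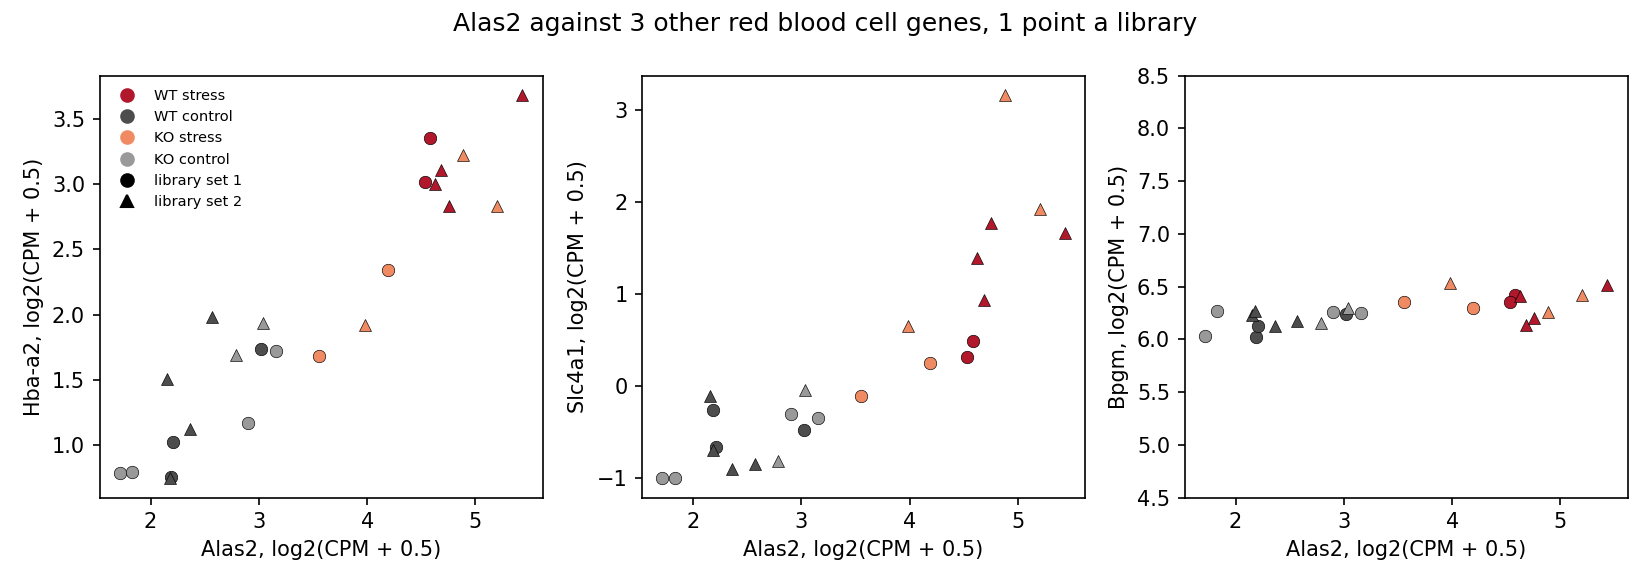
Hba-a2, Slc4a1 and Bpgm against Alas2, each as log2(CPM + 0.5), with 1 point a library, coloured by group and shaped by library set. Hba-a2 and Slc4a1 climbed with Alas2 across libraries, and Bpgm lay within a narrow band.

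Some libraries were high for several members. WT stress replicate 5 had rank 1 of 24 for Alas2 and Hba-a2, rank 2 for Bpgm and Hbb-b1 and rank 4 for Slc4a1. KO stress replicate 4 had rank 1 for Slc4a1, rank 3 for Alas2 and Hba-a2, rank 9 for Hba-a1, rank 13 for Bpgm and rank 19 for Hbb-b1, with 0 counts. KO stress replicate 5 had rank 2 for Alas2, Slc4a1 and Hba-a1. WT stress replicate 5 and KO stress replicate 5 were among the 3 libraries with the most thalamic RNA. Without those 3 libraries the Alas2 log2 fold change in KO mice was 1.71 and no longer passed (adjusted p = 0.177).

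Alas2 was also compared within the 2 library sets, which are not named in the labels. In set 1 it averaged 23.1 CPM in WT stress and 5.26 CPM in WT controls, and in set 2 it averaged 29.6 CPM in WT stress and 4.52 CPM in WT controls. In KO mice the means were 14.5 CPM in stress and 5.30 CPM in controls in set 1, and 26.8 CPM in stress and 7.04 CPM in controls in set 2. Stress and control libraries did not overlap in either set of either genotype. For WT mice the log2 fold change was 2.13 in set 1, with an adjusted p of 0.629, and 2.71 in set 2, with an adjusted p of 0.00187. For KO mice it was 1.45 and 1.93, with adjusted p-values of 1 and 0.416. Hba-a2 gave 2.23 in set 1 and 2.00 in set 2 in WT mice and 1.05 and 1.04 in KO mice, while Slc4a1 gave 1.82 and 3.83 in WT mice and 1.90 and 3.95 in KO mice. None of these differences of Hba-a2 and Slc4a1 passed within a set.

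The rest of the heme pathway did not follow Alas2. Of 12 heme synthesis and transport genes, all tested, 0 passed in WT mice, KO mice or the average, with median log2 fold changes of −0.0080, 0.023 and 0.022 beside −0.0013, 0.0052 and 0.0011 over all genes. Alas1, which starts heme synthesis outside red cells, had −0.083 ± 0.072 in WT mice, and Urod, the uroporphyrinogen decarboxylase gene, had 0.078 ± 0.082. Abcb10 and Tmem14c, which encode mitochondrial membrane proteins of the pathway, had 0.065 ± 0.10 and 0.087 ± 0.092 (adjusted p = 1 for each of these 4). All 12 genes are also expressed outside red cells, and their summed level was 426 to 458 CPM in WT stress and 419 to 466 CPM in WT controls.

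Among 18 other genes of the red cell membrane and skeleton, 15 were tested, and 0 passed in WT mice and 0 in KO mice, with median log2 fold changes of 0.045 in WT mice and 0.13 in KO mice. Sptb, the beta spectrin gene, had −0.19 ± 0.071 in WT mice (adjusted p = 0.861), and Tmod1, a capping protein gene of actin filaments, had −0.30 ± 0.14 (adjusted p = 1). Even numbers made up 70.9% to 75.8% of small counts (1 to 10) in every library, so 2 counts of a rare gene may come from 1 fragment.

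The other erythroid lists held no call in WT mice, KO mice or the average. Of 10 genes for other globins and the globin chaperone, 9 were in the table and 2 were tested, Hbq1a and Hbq1b, with log2 fold changes of 0.10 ± 0.48 and 0.15 ± 0.41 in WT mice. Of 12 genes for red cell glycolysis, gas exchange and oxidant defence, 11 were tested and 0 passed in any comparison, with medians of −0.015 in WT mice and 0.11 in KO mice. Blvrb, a biliverdin reductase gene, had 0.45 ± 0.16 in WT mice (adjusted p = 0.769), Gpx1, a glutathione peroxidase gene, 0.25 ± 0.093 (adjusted p = 0.819), Prdx2, a peroxiredoxin gene, 0.089 ± 0.076 and Pklr, the red cell pyruvate kinase gene, −0.35 ± 0.43 (adjusted p = 1 for both). Of 12 genes of reticulocyte maturation, 10 were tested and 0 passed, with medians of −0.017 in WT mice and 0.031 in KO mice. Among these, Fam46c had 0.74 ± 0.59 in WT mice, Fbxo7 −0.081 ± 0.090 and Tfrc, the transferrin receptor gene, 0.090 ± 0.12 (adjusted p = 1 for each).

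**Figure D4:**
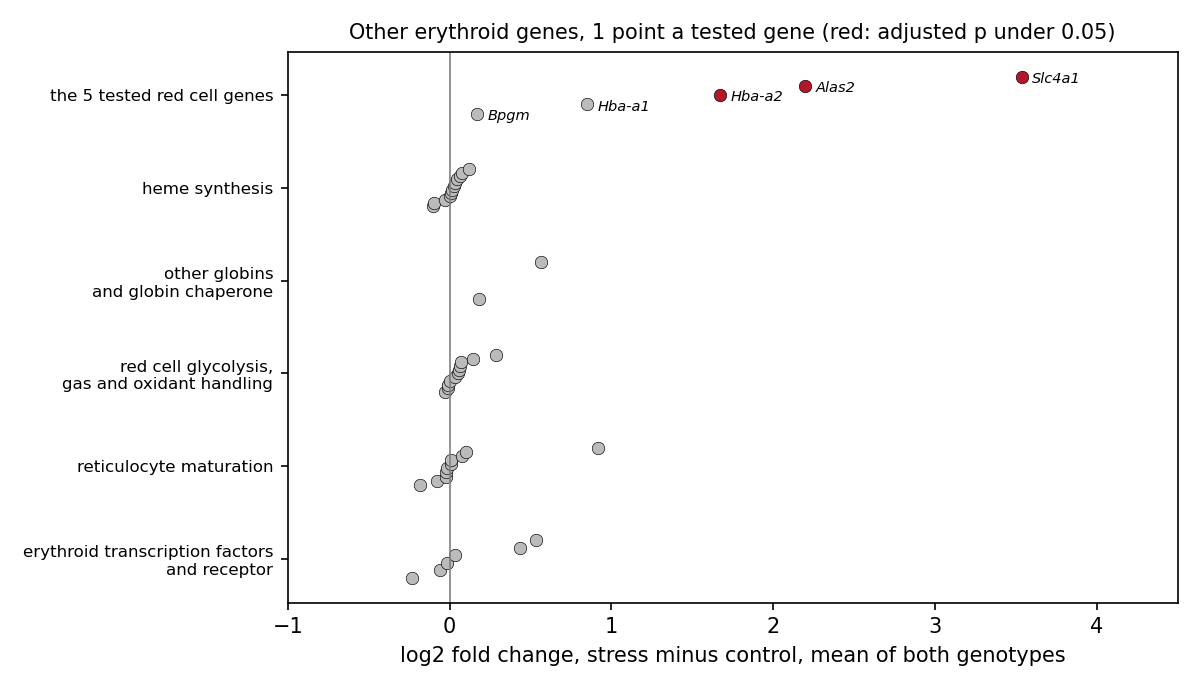
Log2 fold change of stress over control averaged over both genotypes (horizontal axis), with 1 point a tested gene, for the 5 tested members and 5 lists of other erythroid genes. Red points have an adjusted p under 0.05 over all 16313 genes: Alas2, Hba-a2 and Slc4a1 of the members and 0 genes of the 5 lists drawn.

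Of 10 erythroid transcription factor and receptor genes, 6 were tested and 0 passed, with medians of 0.031 in WT mice and −0.017 in KO mice. Epor, the erythropoietin receptor gene, had −0.15 ± 0.19 in WT mice, Klf1 0.059 ± 0.51, Lmo2 0.065 ± 0.12 and Tal1 0.14 ± 0.48 (adjusted p = 1 for each). Gata1, the central erythroid factor, had 8 counts in KO stress replicate 3, 18 in KO stress replicate 4 and 0 in the other 22 libraries. KO stress replicate 4, which had the most Slc4a1, also had the most counts of Nfe2 (36), Hemgn (24) and Car1 (26), genes of erythroid precursors and red cells.

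**Figure D5:**
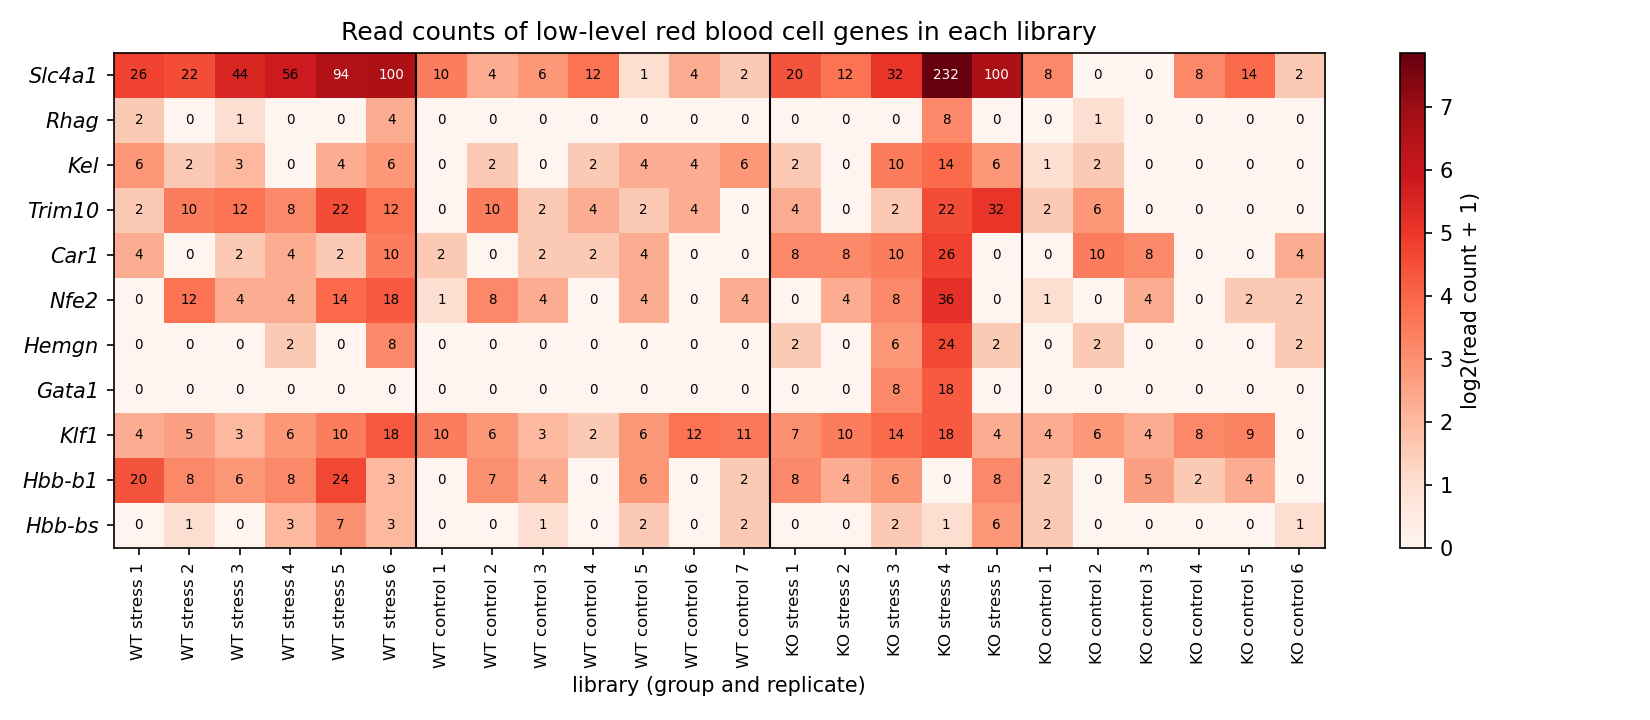
Read counts of Slc4a1 and 10 low-level red blood cell genes in each library, with the count printed in each cell and the colour giving log2(count + 1). Stress libraries held most counts of Slc4a1 in both genotypes, and Gata1 was counted in KO stress replicates 3 and 4 only.

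Genes of other blood and vessel cells moved with stress as well. Of 12 neutrophil genes, 8 were tested, and S100a8, S100a9 and Retnlg rose in WT mice and in the average, and 0 passed in KO mice. Their summed level was 11.3 to 41.1 CPM in WT stress and 9.11 to 11.3 CPM in WT controls, and 9.26 to 29.3 CPM in KO stress and 8.37 to 11.5 CPM in KO controls, and none of the 12 was at 0 in any group. KO stress replicates 1 and 2, at 9.94 and 9.26 CPM of neutrophil genes, lay within the KO control range while their Alas2, at 17.8 and 11.2 CPM, lay above its own KO control range. Csf3r, at 5630 counts over the 24 libraries, outweighs rare neutrophil genes such as Retnlg (234 counts) in this sum. A change in the rare genes alone could therefore be hidden in it. All 16 endothelial genes were tested and 0 passed, with 16 above 0 in WT mice and a median log2 fold change of 0.26, and 15 above 0 in KO mice and a median of 0.20. Their summed level was 439 to 508 CPM in WT stress and 363 to 414 CPM in WT controls, and 380 to 542 CPM in KO stress and 370 to 429 CPM in KO controls. Of 12 pericyte and smooth muscle genes, 1 passed in the average, the potassium channel gene Kcnj8 (log2 fold change 0.44 ± 0.090, adjusted p = 0.0297). The summed level of the 12 was 238 to 323 CPM in WT stress and 221 to 287 CPM in WT controls, and 245 to 346 CPM in KO stress and 232 to 284 CPM in KO controls. The part of these cells in the erythroid differences was not tested.

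Other lists did not pass. Of 12 platelet genes, 9 were tested and 0 passed in any comparison, with 6 above 0 in WT mice and 4 in KO mice. Their summed level was 25.3 to 38.0 CPM in WT stress and 26.2 to 34.5 CPM in WT controls. In KO mice it was 22.3 to 38.0 CPM in stress and 26.6 to 41.5 CPM in controls. Gp1bb, at 14631 counts over the 24 libraries, outweighs rare genes such as Ppbp (150 counts) in this sum. Ppbp averaged 0.438 ± 0.353 CPM in WT stress and 0.0202 ± 0.0346 CPM in WT controls. Its KO means were 0.274 ± 0.336 CPM in stress and 0.130 ± 0.105 CPM in controls. Tubb1, which was not tested, had 53 counts in WT stress and 7 in WT controls, and 12 and 6 in KO mice. Of 12 lymphocyte genes, 10 were in the table and 4 were tested, and 0 passed. The 12 choroid plexus genes had 0 calls and medians of opposite sign, −0.49 in WT mice and 0.84 in KO mice, with summed levels of 24.6 to 2183 CPM in WT stress and 67.3 to 2597 CPM in WT controls, and of 813 to 2089 CPM in KO stress and 32.7 to 1913 CPM in KO controls. Of the 12 thalamic and habenular genes 0 passed, with medians of 0.31 in WT mice and 0.51 in KO mice. The 12 hippocampal neuron genes had 0 calls, medians of −0.058 and 0.0040 and at least 446 summed CPM in every library.

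By pattern across the 24 libraries (Spearman rho of log2(CPM + 0.5), 14272 genes ranked), the genes outside the set most like Alas2 were Ube2l6 (rho 0.884), the exonuclease gene Isg20 (0.857), the von Willebrand factor gene Vwf (0.851), Lcn2 (0.851) and the neutrophil gene S100a9 (0.850). Within the set, Hba-a2 stood at 0.902 and Slc4a1 at 0.891, and Bpgm at 0.570. Hba-a2 was most like Ube2l6 (0.884), Gm694 (0.812) and the neutrophil gene S100a8 (0.795). Slc4a1 was most like Lcn2 (0.827), Tmem252 (0.825) and Ctla2a (0.824). Hba-a1 was nearest to the endothelial transcription factor genes Elk3 (0.750) and Sox7 (0.739) and the vascular growth factor receptor gene Kdr (0.728), and its rho with Hba-a2 was 0.377. Bpgm was nearest to Cdc42ep1 (0.859), Cuedc1 (0.831) and Tapbp (0.827). These values are not centred on the groups, so the stress difference shared by the genes is part of them.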

How the data were processed

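The authors deposited a table of whole-number read counts, 1 row a gene symbol, for 24 hippocampal libraries, without scaling. STAR, DESeq2 and the mm10 build are listed, per the submitters' processing notes, without version or role. Nothing in the labels names the read counter, its annotation or its use of strand. Groups and replicate numbers came from the sample titles, and every column was matched to 1 title.

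Genes were kept with the edgeR filter at a minimum count of 10, and 16313 of 24062 were tested in 1 fit of 4 group means (edgeR 4.0.16 in R 4.3.3, TMM scaling, robust quasi-likelihood F test, 20 residual degrees of freedom, biological coefficient of variation 0.219). P-values were adjusted by Benjamini-Hochberg over all genes tested, with a threshold of 0.05, and the SE is the log2 fold change over the square root of F. The average comparison is the mean of the WT and KO stress effects. Libraries were split into sets at 15000 CPM of Rn45s. Correlations used 100000 resamples in Python 3.11.15 with SciPy 1.17.1. The procedure was tested on simulated data. Alternatives included DESeq2 1.42.0, other scalings and filters, library sets and leaving out libraries.

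Replicate numbers were not used as pairs. All 6 members are given by library. From each erythroid list, genes past the threshold and the 4 with the smallest p in WT mice are named. The genes most like each member by rank correlation are the first 5 for Alas2 and the first 3 for the others, among genes averaging at least 1 CPM. Genes named for their counts were chosen after their values were seen. Some genes that met these rules are not reported here. Genes, lists and tests were chosen with earlier results of these data known. Ahsp, Trbc2 and Ighm were not analysed here.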

Additional observations from a re-analysis of the deposited data

Results flagged for a closer look

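Of 28 groups of 4 to 7 libraries examined, 2 held a library far from the others by Dixon's criterion, which chance alone meets in about 1 group in 20. In WT stress, replicate 5 had 42.7 CPM of Alas2, and its gap to the next library was 0.81 of the range of the group. In WT controls, replicate 3 had 7.62 CPM of Alas2, with a gap of 0.595 of the range. Without WT stress replicate 5 the WT log2 fold change of Alas2 was 2.33, and without WT control replicate 3 it was 2.65, and both fits kept the call.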

How the results depend on the processing

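The calls of Alas2 and Hba-a2 in WT mice, and of Alas2, Hba-a2 and Slc4a1 in the average, held in all 24 fits without 1 library. The call of Alas2 in KO mice did not. Neither library set alone kept the call of Hba-a2 in WT mice (edgeR, adjusted p = 0.362 in set 1 and 0.0558 in set 2). In KO mice 0 genes and 0 members passed with no filter, with only the 2 groups compared, with the library set as a term, in set 1, in set 2 and without the 3 libraries rich in thalamic RNA (Alas2 adjusted p = 0.0534, 0.981, 0.0682, 1, 0.416 and 0.177), while DESeq2 called 7 genes and 2 members. In set 1 the WT and average comparisons called 0 genes and 0 members. In set 2 the WT comparison called 1 member and the average 69 genes, and without the 3 thalamic libraries the average called 20 genes. DESeq2 called 59 genes in WT mice, 74 in the average and 3 between control groups. The cause of these changes was not tested, beyond the smaller number of libraries where some were left out. With only the 2 groups compared, 3 members passed in WT mice. Fits for 2 groups only were not run for the average and the interaction.

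Leaving out 1 library, the number of genes called ran from 15 to 27 in WT mice, 0 to 2 in KO mice and 26 to 48 in the average, and was 0 to 0 for the interaction and both genotype comparisons. Members called ran from 2 to 3, 0 to 1 and 3 to 3, and were 0 to 0 elsewhere. The Alas2 to globin ratio differed by 0.56 to 0.75 in WT and 0.67 to 0.90 in KO mice. With the replicate number as a block, 24 genes and 2 members passed in WT mice, 1 and 1 in KO mice and 36 and 3 in the average. Same-numbered libraries had a median r of 0.117 between their deviations from group means, with 18 of 33 pairs over 0.1, against −0.075 and 64 of 182 for other pairs, and 3 of 24 libraries correlated best with their own number.

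Results that changed sign were all uncalled. For KO against WT in controls, Slc4a1 had −0.38 with the replicate block and −0.64 in set 1, and Hba-a2 −0.076 in set 1. Under stress, Hba-a1 had 0.093 with the replicate block and 0.061 in set 2, Slc4a1 −0.56 in set 1, and Bpgm −0.058 in set 1 and −0.0038 without the 3 libraries. For the interaction, Hba-a1 had −0.37 in set 1 and −0.27 without the 3 libraries, and Bpgm 0.060 in set 2. Leaving out 1 library, the interaction ran from −0.24 to 0.55 for Hba-a1, −0.41 to 1.14 for Slc4a1 and −0.054 to 0.022 for Bpgm. KO against WT ran from −0.060 to 0.29 for Hba-a2 and −0.52 to 0.33 for Slc4a1 in controls, and from −0.76 to 0.018 for Hba-a1, −0.40 to 0.90 for Slc4a1 and −0.0090 to 0.069 for Bpgm under stress. Depth limits Hba-a1, Hbb-b1 and Slc4a1, whose control libraries held few counts.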
